A study of Mus musculus with 12 samples.

Results

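Keratins 7, 8, 18 and 19 mark the luminal cells that line the ducts of the mammary gland, and keratins 5, 14, 15 and 17 mark the basal layer that surrounds them. Their transcripts were followed in mammary glands of female BALB/c mice that were null for the progesterone receptor or wild type. All probe sets annotated to Krt7, Krt8, Krt18 and Krt19 (luminal) and to Krt5, Krt14, Krt15 and Krt17 (basal) were taken, which gave 13 probe sets for 8 genes, among 45101 probe sets and 18194 named genes on the arrays. Of the 13 probe sets, 11 passed the filter on low values, that is, lay above the median of their array on at least 3 of the 12 arrays, and 23709 probe sets were tested in all. The genes were taken by name, with no threshold on a measured value, but with earlier results of these data known. Counts of them beside the share of all tested probe sets are thus descriptions and carry no test.

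There were 4 groups of 3 Affymetrix arrays, with the RNA of 3 mice pooled on each: null glands at 24 h, wild-type glands at 24 h, null glands at 8 h and wild-type glands at 8 h. Every animal was ovariectomized, was 10 weeks old, and had been given 17β-estradiol (100 ng) for 24 h before 17β-estradiol (100 ng) was combined with progesterone (2.5 ug), and the hours of a group are those of the combined treatment. No group used here went without progesterone, and the length of estradiol treatment differs between the times, so that progesterone and estradiol cannot be told apart in a change over time. The labels do not describe the null allele. The pools are labelled as biological replicates, and p-values measure the spread between pools.

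Keratins are the intermediate filament proteins of epithelial cells. Each filament is built from pairs of an acidic type I keratin (Krt14, Krt15, Krt17, Krt18, Krt19) and a basic type II keratin (Krt5, Krt7, Krt8), and the pairs differ between epithelial layers. In the mammary gland, the pair of keratins 8 and 18 is the textbook mark of luminal cells and the pair of keratins 5 and 14 that of basal and myoepithelial cells, which contract under oxytocin and rest on the basement membrane. The progesterone receptor itself is found in a subset of luminal cells.

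The values were log2 signals that the authors deposited, and the array medians lay between 5.84 and 5.91. Pearson correlations between arrays of a group lay between 0.965 and 0.993 over the tested probe sets. The 4 luminal genes lay above the array median on all 12 arrays, as did Krt5 and both tested probe sets of Krt14. Krt15 did so on 5 arrays and Krt17 on 6. The 3 probe sets of the receptor gene itself did not give 1 picture: a Pgr probe set was 2.08-fold lower in null than in wild-type glands at 8 h (adjusted p = 0.012) and 1.28-fold lower at 24 h (adjusted p = 0.45), a second was 3.92-fold higher at 8 h and 4.28-fold higher at 24 h, and the remaining one did not pass the filter. The first read 7.20 to 7.86 in null pools and 7.52 to 8.10 in wild-type pools at 24 h, and 8.56 to 9.07 in null pools and 9.89 to 10.01 in wild-type pools at 8 h. The second read 6.24 to 6.57 in null and 4.01 to 4.47 in wild-type pools at 24 h, and 6.79 to 6.93 in null and 4.62 to 5.02 in wild-type pools at 8 h. Where these probe sets lie relative to the deleted part of the gene is not given in the sources used here, so they do not check the labels.

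Before the keratins are described, 2 arrays need to be named because they stand apart. Several epidermal markers, among them Krt1 and Flg, were high on wild-type pool 1 at 24 h and on wild-type pool 3 at 8 h. Krt1, the type II keratin of the outer layers of the epidermis, read 10.26 and 7.98 on these arrays, and 3.76 to 5.13 on the other 10. Flg, which encodes the filament-aggregating protein of cornified cells, read 7.92 and 6.91, and 2.25 to 3.43 elsewhere. Neither Krt1 nor Flg passed the filter. Not all skin genes followed them, as Ivl and Sbsn show, which were named after their values were seen. Ivl, which did not pass the filter either, read 5.49 and 4.96 on these arrays, and 5.31 to 6.06 elsewhere. Sbsn read 10.15 and 9.04, and 7.27 to 9.64 elsewhere. Krt5, Krt14, Krt15 and Krt17 are also expressed in skin, so the differences of these genes are given with and without these 2 arrays. The hair keratins Krt31 and Krt35, named after their values were seen, were high on these 2 arrays. They were also high on wild-type pool 2 at 24 h and wild-type pool 1 at 8 h. Krt31 read 6.42 to 6.87 on these pools and 5.29 to 5.57 elsewhere. Krt35, which did not pass the filter, read 4.74 to 4.98 on them and 3.32 to 3.81 elsewhere. Fits without the 2 arrays kept wild-type pool 2 at 24 h and wild-type pool 1 at 8 h.

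Of the 8 genes, Krt5, Krt7, Krt8, Krt14 and Krt18 had an entry in the RefSeq promoter sequences of mouse assembly GRCm38.p6, which are windows of 300 bases. For Krt7, Krt8 and Krt18 most of the window lay upstream of the annotated start. Where the windows listed for Krt5 and Krt14 lie relative to the start of the gene was not checked. The windows of Krt8 and Krt18 are shown because the filament partners they encode were the luminal keratins called higher in null glands at 8 h. That of Krt7 is shown because it was called at 24 h, and the window listed for Krt14 as the basal counterpart. Capitals mark matches, on either strand, to the letters TATAAA bound by the basal machinery, GGGCGG of the Sp family, CCAAT of nuclear factor Y, AGAACA from the core of a steroid receptor element, or TGANTCA of AP-1 factors. Each sequence is written 5′ to 3′ along its gene's own strand.
Krt8 (chr15:102004293-102004592, minus strand): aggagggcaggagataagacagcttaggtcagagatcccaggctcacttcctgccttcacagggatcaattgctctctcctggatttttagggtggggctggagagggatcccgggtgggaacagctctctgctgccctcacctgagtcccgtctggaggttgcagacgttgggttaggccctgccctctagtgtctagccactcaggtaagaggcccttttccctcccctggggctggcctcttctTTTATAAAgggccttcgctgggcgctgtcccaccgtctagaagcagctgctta
Krt18 (chr15:102027966-102028265, plus strand): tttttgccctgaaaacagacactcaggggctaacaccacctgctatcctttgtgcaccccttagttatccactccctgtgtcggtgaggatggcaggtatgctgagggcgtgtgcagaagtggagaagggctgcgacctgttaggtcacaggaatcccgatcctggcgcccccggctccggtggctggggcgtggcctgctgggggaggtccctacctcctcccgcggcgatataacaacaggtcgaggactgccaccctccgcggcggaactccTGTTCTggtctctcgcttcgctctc
Krt7 (chr15:101412153-101412452, plus strand): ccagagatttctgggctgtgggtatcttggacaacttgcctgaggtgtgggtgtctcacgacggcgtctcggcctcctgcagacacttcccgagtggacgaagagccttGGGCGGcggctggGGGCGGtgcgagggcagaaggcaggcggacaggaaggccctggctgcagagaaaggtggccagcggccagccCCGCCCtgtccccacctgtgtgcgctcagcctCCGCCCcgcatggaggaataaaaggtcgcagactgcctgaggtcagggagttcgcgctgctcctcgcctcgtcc
Krt14 (chr11:100205981-100206280, minus strand): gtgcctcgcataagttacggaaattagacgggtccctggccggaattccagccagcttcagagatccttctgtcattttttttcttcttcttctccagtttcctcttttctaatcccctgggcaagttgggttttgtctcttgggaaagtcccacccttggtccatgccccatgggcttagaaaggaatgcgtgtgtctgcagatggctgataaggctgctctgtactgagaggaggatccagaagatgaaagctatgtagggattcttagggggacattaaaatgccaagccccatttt

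Krt8 held a TATAAA match on each strand, 1 overlapping the other, and no other motif. Along the gene they begin at -3 and -1 relative to its annotated start, and so span that start. Krt18 held 1 AGAACA match, which starts at base 276 of its window and lies on the opposite strand to the gene. Krt7 held 4 matches to GGGCGG, and the windows listed for Krt14 and Krt5 held none of the 5 motifs. These matches describe letters in the window and are not shown to be sites in use. Among all 32851 promoter windows of the table, 13.6% held TATAAA, 35.7% GGGCGG, 37.4% CCAAT, 19.0% AGAACA and 7.81% TGANTCA. Krt8 and Krt18 lie on the same chromosome with 2 annotated genes between them, Gm36026 and Gm41404, and are read from opposite strands.

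Krt8, the type II keratin of luminal cells, was higher in null than in wild-type glands at 8 h on every probe set. The probe set with the highest mean read 11.37, 11.27 and 11.28 in null pools 1 to 3 at 8 h, against 10.51, 10.50 and 10.51 in wild-type pools. All 3 null pools lay above all 3 wild-type pools, and the 3 wild-type arrays at 8 h were the lowest of the 12. The difference was 0.80 on the log2 scale (SE 0.11), 1.74-fold, with an adjusted p of 0.0032 in limma's moderated test. The other Krt8 probe sets were 1.80-fold and 1.70-fold higher, with adjusted p of 0.0060 and 0.0088. All 3 calls held when any 1 array was left out. In such whole-tissue RNA, more cells of a type and more RNA per cell cannot be told apart.

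At 24 h Krt8 did not separate the genotypes. Null pools read 11.29, 11.18 and 11.04, against 11.13, 10.67 and 11.15 in wild-type pools, and the groups overlapped. The difference was 0.19 (95% interval -0.06 to 0.44, adjusted p = 0.52). Krt8 rose with time in wild-type glands, by 0.48 on the log2 scale (1.39-fold, adjusted p = 0.037), with all 3 arrays at 24 h above all 3 at 8 h, while the other 2 probe sets were 1.41-fold and 1.39-fold higher without passing the threshold (adjusted p = 0.058 and 0.062). In null glands the 24 h minus 8 h difference was -0.14 (adjusted p = 0.54), and the groups overlapped. The call in wild-type glands was lost in 8 of the 12 fits without 1 array, with adjusted p up to 0.12, and was kept without wild-type pool 2 at 24 h, the lowest of its group (adjusted p = 0.0037), or without null pool 1 or 3 at 24 h or null pool 1 at 8 h.

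Krt18, the type I partner of keratin 8, showed the same order of groups at 8 h on a smaller scale. It read 11.12, 10.93 and 10.95 in null pools, against 10.50, 10.67 and 10.64 in wild-type pools, with no overlap. The difference was 0.39 (SE 0.09), 1.31-fold, with an adjusted p of 0.039. This call was lost when any 1 of the 6 pools at 8 h was left out (adjusted p of 0.074 to 0.18), and also without null pool 2 or wild-type pool 1 at 24 h (0.058 and 0.053). It was lost as well with no filter, with no trend in the prior, with quantile normalization, with the 2 groups fitted alone and without the 2 arrays highest in skin markers (adjusted p of 0.0505 to 0.0908). At 24 h Krt18 read 10.83, 10.78 and 10.57 in null pools, against 10.93, 10.80 and 11.002 in wild-type pools, and the groups overlapped (difference -0.18, adjusted p = 0.41).

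Between times, Krt18 lay higher at 24 h than at 8 h on all wild-type arrays (0.31, adjusted p = 0.074) and lower on all null arrays (-0.27, adjusted p = 0.11). Neither difference passed the test. The change of the genotype difference from 8 h to 24 h was -0.58 for Krt18 and -0.61 for Krt8, with adjusted p of 0.19 and 0.31.

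Krt19, a type I keratin of simple epithelia and of luminal cells, also lay higher in null pools at 8 h. It read 10.55, 10.39 and 10.25 there, against 9.79, 9.40 and 10.19 in wild-type pools. The groups did not overlap, but wild-type pool 3 came close to the lowest null pool. The difference was 0.60 (1.52-fold) and did not pass the test (adjusted p = 0.097). Without wild-type pool 3, which was 1 of the 2 arrays high in skin markers, it was 0.80 with an adjusted p of 0.023. Without wild-type pool 2, the lowest of its group, it was 0.41 with an adjusted p of 0.30, and it did not pass in 11 of the 12 fits without 1 array. At 24 h Krt19 read 10.45, 10.35 and 10.17 in null pools, against 10.15, 9.85 and 10.19 in wild-type pools, with an overlap and a difference of 0.26 (adjusted p = 0.56).

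Krt7, a type II keratin of simple and glandular epithelia, was the gene of the 8 whose genotype groups separated in opposite directions at the 2 times. At 24 h it read 8.83, 8.80 and 8.54 in null pools, against 9.28, 9.08 and 9.21 in wild-type pools. At 8 h it read 9.58, 9.43 and 9.58 in null pools, against 9.15, 9.10 and 9.30 in wild-type pools. Null pools thus lay below every wild-type pool at 24 h and above every one at 8 h.

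At 24 h the Krt7 difference was -0.46 (SE 0.10), 1.38-fold lower in null glands, with an adjusted p of 0.046. At 8 h it was 0.35 (1.27-fold, adjusted p = 0.086). The change between these differences was -0.81 and lay just above the threshold (adjusted p = 0.053). The 24 h call was kept in 1 of the 12 fits without 1 array, that without wild-type pool 2 at 24 h (adjusted p = 0.029), and lost in the other 11 (0.051 to 0.18). With the replicate number as a block in the null arrays, its adjusted p was 0.061.

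Krt7 fell with time in null glands by 0.81 on the log2 scale, with 1.75-fold lower values at 24 h than at 8 h (adjusted p = 0.0019), and no null array at 24 h reached the lowest at 8 h. This call held in all 12 fits without 1 array. In wild-type glands the difference was 0.00 (95% interval -0.21 to 0.22, adjusted p = 0.99). The plot of levels by group shows these separations array by array.

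**Figure D1:**
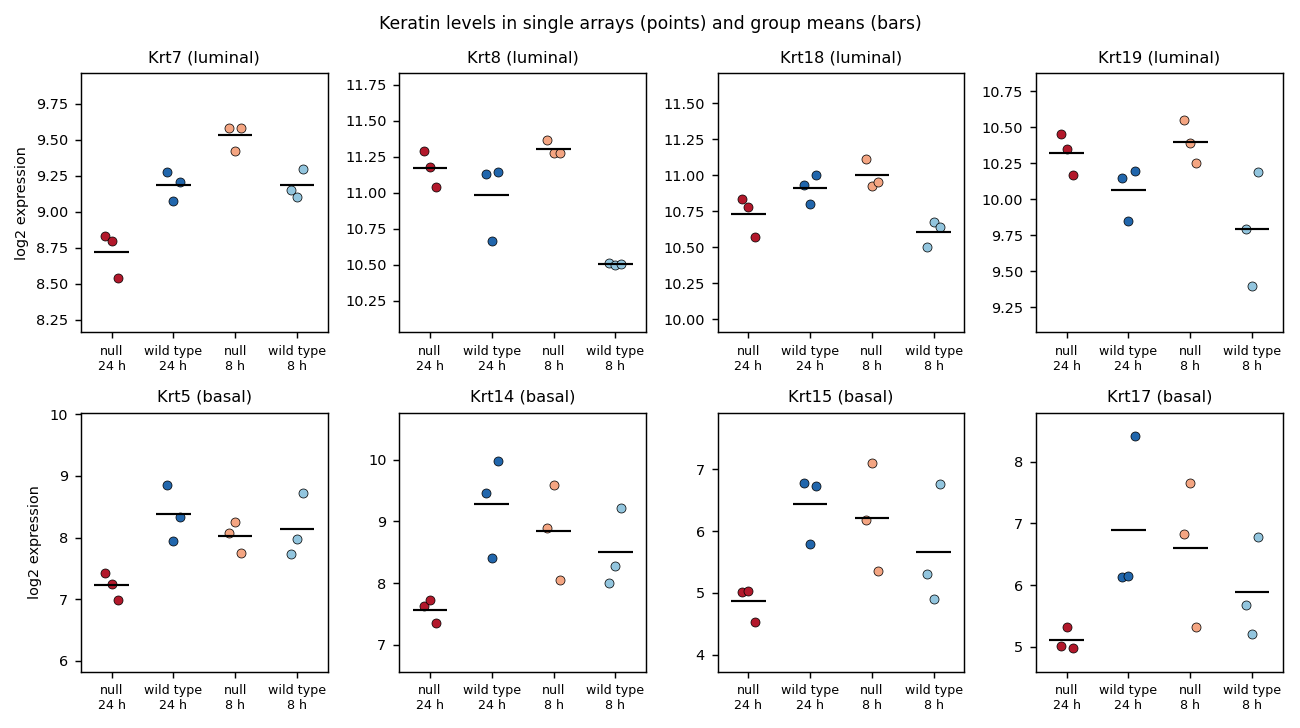
Deposited log2 signal of the representing probe set of each of the 8 keratins (vertical axes, log2) on every array, by group (horizontal axis: null then wild type at 24 h, null then wild type at 8 h); points are pools of 3 mice, and short lines are group means. The vertical axes of the luminal genes (top) span less than those of the basal genes (bottom). Krt8 and Krt18 are lowest in wild-type glands at 8 h, Krt7 is lowest in null glands at 24 h, and so are Krt5, Krt14, Krt15 and Krt17.

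Krt5, the type II keratin of basal cells, was lowest in null glands at 24 h. It read 7.43, 7.25 and 6.995 there, against 8.86, 7.95 and 8.33 in wild-type pools, and the groups did not overlap. The difference was -1.16 (SE 0.27), 2.23-fold lower, with an unadjusted p of 0.0011 in limma's fit and an adjusted p of 0.072. Without wild-type pool 1, high in skin markers, it was -0.92 (adjusted p = 0.24). It passed without wild-type pool 2 at 24 h (-1.37, adjusted p = 0.028) and without wild-type pool 3 at 8 h (adjusted p = 0.034). At 8 h Krt5 read 8.08, 8.25 and 7.75 in null pools, against 7.74, 7.98 and 8.72 in wild-type pools, with an overlap (difference -0.12, adjusted p = 0.89). Without wild-type pool 3 at 8 h this difference was 0.17.

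Krt14, the type I partner of keratin 5, followed the same order at 24 h with a larger spread in wild-type glands. Its probe set with the highest mean read 7.62, 7.72 and 7.36 in null pools at 24 h, against 9.47, 8.41 and 9.97 in wild-type pools. The null pools were the lowest 3 of the 12 arrays, and their SD was 0.19 against 0.80 in wild type. The difference was -1.72 (SE 0.44), 3.29-fold lower, with an adjusted p of 0.10. A second probe set gave 3.11-fold lower (adjusted p = 0.16), and the remaining one stayed below the array median on all arrays. Without wild-type pool 1 the difference was -1.63 (adjusted p = 0.28), and without wild-type pool 2, the lowest of its group, it was -2.15 and passed the test (adjusted p = 0.027). At 8 h Krt14 read 8.89, 9.60 and 8.05 in null pools, against 8.01, 8.28 and 9.21 in wild-type pools, and the groups overlapped.

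Krt15 is a type I keratin of basal keratinocytes and of stem cells in the hair follicle. At 24 h it read 5.02, 5.03 and 4.53 in null pools, against 6.78, 5.79 and 6.74 in wild-type pools, which did not overlap. The difference was -1.57 (SE 0.50), 2.97-fold lower, with an adjusted p of 0.19, and -1.40 without wild-type pool 1. All 3 null pools lay below the array median, where signals are dim, so this fold describes the deposited values only. At 8 h it read 6.18, 7.11 and 5.36 in null pools, against 5.31, 4.90 and 6.77 in wild-type pools, and the groups overlapped.

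Krt17, a type I keratin of basal and myoepithelial cells, of skin appendages and of wounded epithelia, had the widest spread. At 24 h it read 5.01, 5.33 and 4.98 in null pools, against 6.14, 6.15 and 8.42 in wild-type pools, with no overlap. The difference was -1.79 (SE 0.67), 3.47-fold lower, with an adjusted p of 0.26. Here too the null pools lay below the array median, with the same limit on the fold. The difference was -2.18 without wild-type pool 1, and -1.04 without wild-type pool 3, the highest of the 12 arrays. At 8 h Krt17 read 6.83, 7.66 and 5.33 in null pools, against 5.68, 5.21 and 6.79 in wild-type pools, and the groups overlapped. A second Krt17 probe set stayed between 3.14 and 3.75 and was not tested. A probe set annotated to both Krt17 and Krt14 read 4.19 to 4.85 and was assigned to neither. Type I keratins share much of their sequence, and the files do not show how far a probe set also binds a relative's transcript.

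Counted over probe sets, the genotype calls at 8 h were all luminal. Of 11 keratin probe sets 4 were called higher in null glands, the 3 of Krt8 and that of Krt18, and 0 lower, where 1.54% of all tested probe sets were called higher. All 6 luminal probe sets and none of the 5 basal ones had null arrays above all wild-type arrays, where 10.7% of all tested probe sets did. The median difference over the 4 luminal genes was 0.50, and over the 4 basal genes 0.45, against -0.02 over all probe sets tested. The basal median came from differences between -0.12 and 0.72 with adjusted p of 0.67 to 0.89 and 95% intervals that include 0. Without the 2 arrays highest in skin markers they were 0.17 for Krt5, 0.70 for Krt14, 1.11 for Krt15 and 1.16 for Krt17 (adjusted p of 0.25 to 0.70). Without null pool 2 at 8 h, the highest null array of that time for all 4, they were -0.23, -0.03, 0.11 and 0.19.

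At 24 h the basal class held most of the separations and none of the calls. Of the 11 probe sets 1 was called lower in null glands (Krt7) and 0 higher, where 0.873% of all tested were called lower. All 5 basal probe sets and Krt7 had null arrays below all wild-type arrays, where 9.74% of all tested did. All 5 basal probe sets had an unadjusted p below 0.05 in limma's fit, where 9.12% of all tested had one with a lower value in null glands. The median over the 4 basal genes was -1.64 and over the 4 luminal genes 0.00, against -0.02 over all probe sets tested. The plot of genotype differences sets both times side by side.

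**Figure D2:**
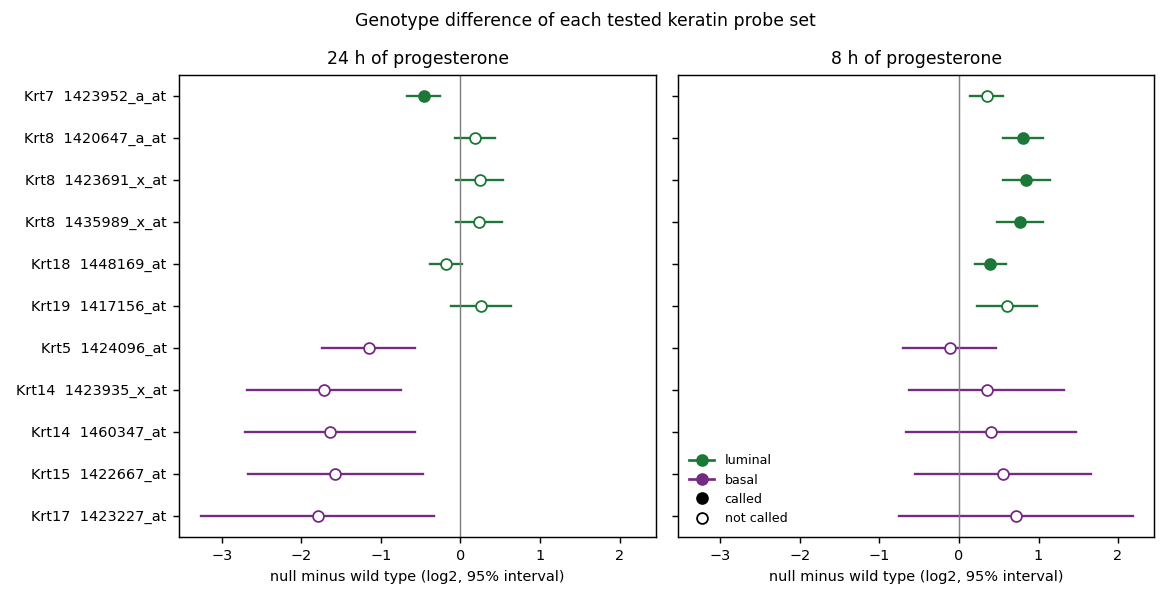
Null minus wild type difference in log2 signal (horizontal axis) for each of the 11 tested keratin probe sets (vertical axis), at 24 h (left) and at 8 h (right); points are limma estimates, bars their 95% intervals, and filled points an adjusted p below 0.05. The 6 luminal probe sets lie right of 0 at 8 h, and the 5 basal ones lie left of 0 at 24 h, with wider intervals.

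The interaction, which asks whether the genotype difference at 24 h differed from that at 8 h, was negative for all 8 genes. It was negative for 12361 of all 23709 tested probe sets. No keratin probe set was called, where 0.143% of all tested were, and 10 of the 11 had an unadjusted p below 0.05 in limma's fit, as did 5.67% of all tested. The differences of the basal genes were -2.06 for Krt14 (adjusted p = 0.46), -2.13 for Krt15 (0.55), -2.51 for Krt17 (0.70) and -1.04 for Krt5 (0.65). Without the 2 arrays highest in skin markers they were -2.33, -2.51, -3.34 and -1.09 (adjusted p of 0.21 to 0.33). Krt19 was the exception, with -0.34 and an unadjusted p of 0.19.

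Over time in null glands, all 8 genes had lower means at 24 h than at 8 h, as did 13251 of all 23709 tested probe sets. Of the 11 probe sets 1 was called lower (Krt7) and 0 higher, where 3.59% of all tested were called lower. Krt7, Krt18 and the 5 basal probe sets did not overlap between times, where 17.4% of all tested lay lower without overlap. The basal differences were -0.80 for Krt5, -1.28 for Krt14, -1.35 for Krt15 and -1.50 for Krt17, with adjusted p between 0.11 and 0.23. Without the 2 arrays highest in skin markers, which are both wild type, Krt5 passed the test (adjusted p = 0.032). The null arrays and their difference are the same in that fit, which shares its estimate of the spread over all groups.

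In wild-type glands all 8 genes had higher means at 24 h, while 12639 of all 23709 tested probe sets had lower ones. Of the 11 keratin probe sets 1 was called higher (Krt8), where 1.53% of all tested were. The 3 Krt8 probe sets and Krt18 did not overlap between times, where 9.8% of all tested lay higher without overlap. The basal genes overlapped between times, with differences from 0.23 for Krt5 to 1.01 for Krt17 and adjusted p of 0.34 to 0.66. Without the 2 arrays highest in skin markers these differences ran from 0.28 for Krt5 to 1.84 for Krt17, with adjusted p of 0.21 to 0.46. Single arrays moved them the other way: without wild-type pool 3 at 24 h the difference was 0.25 for Krt17 and 0.44 for Krt14, and without wild-type pool 1 at 24 h it was 0.00 for Krt5.

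Averaged per array, with each gene centred on its mean over the 12 arrays, the luminal minus basal level separated the genotypes at 24 h. It was 0.87 ± 0.09 in null glands and -0.64 ± 0.50 in wild-type glands (SD, n = 3 each), with ranges of 0.77 to 0.94 and -1.15 to -0.15. At 8 h it was -0.04 ± 0.77 in null glands and -0.20 ± 0.59 in wild-type glands, and the ranges overlapped. Most of this lay in the basal mean, which was -0.91 ± 0.20 in null and 0.65 ± 0.65 in wild-type glands at 24 h, while the luminal mean was -0.04 ± 0.14 and 0.01 ± 0.16. The luminal mean separated the genotypes at 8 h, with 0.28 ± 0.08 in null and -0.25 ± 0.12 in wild-type glands. These means describe genes chosen with results of these data known and carry no test. No basal mean of a null pool at 24 h, from -1.14 to -0.77, was reached by any other array, the next being -0.51 in wild-type pool 2 at 8 h. Without the 2 arrays highest in skin markers the luminal minus basal mean of wild-type glands, over 2 pools at each time, was -0.65 at 24 h and 0.14 at 8 h.

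**Figure D3:**
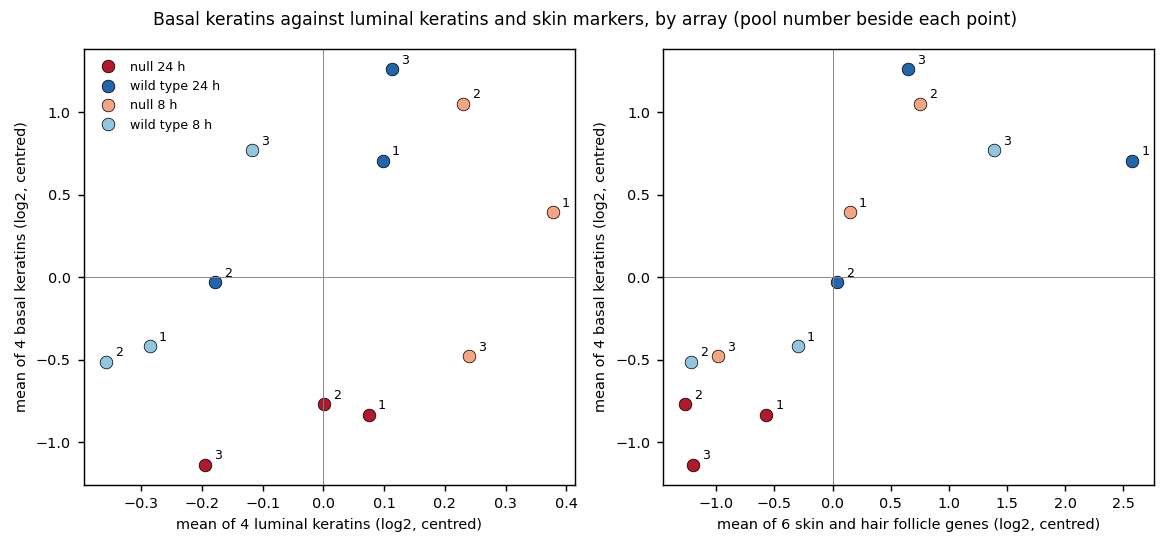
Mean centred log2 level of the 4 basal keratins (vertical axes) against that of the 4 luminal keratins (left) and of the 6 tested skin and hair follicle genes (right), on each of the 12 arrays, coloured by group with the pool number beside each point. The 3 null arrays at 24 h lie at the bottom of both panels, between -1.14 and -0.77, and the 3 null arrays at 8 h lie furthest right in the left panel, between 0.23 and 0.38.

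Across the 12 arrays the basal keratins were more alike than the luminal ones. Pearson correlations between the 6 pairs of basal genes lay between 0.65 and 0.95 with a median of 0.88, and those between the 6 luminal pairs between 0.15 and 0.83 with a median of 0.58. After the group means were removed, the medians were 0.81 and 0.68. Over the 10 arrays without the 2 highest in skin markers they were 0.92 and 0.64, with group means kept. Krt8 and Krt18 correlated at 0.75. Between the classes the 16 pairs ranged from -0.17 to 0.67. These are descriptions over 12 arrays that share groups, pools and normalization, and they carry no test.

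Among 11975 other tested genes, those whose profile over the 12 arrays was most like a keratin's were named without regard to what they do. Krt5 was most like Trp63, which encodes the p63 transcription factor of basal epithelial cells (r = 0.95), and Epha1 (0.94). Krt14 was most like Dsp, which encodes desmoplakin, the protein that ties keratin filaments to desmosomes (0.99), and Scap (0.97). Krt15 was most like Dmkn (0.97) and again Dsp (0.96), and Krt17 like Defb6 (0.97) and Cst6 (0.95). On the luminal side Krt7 was most like Kit, which encodes a receptor tyrosine kinase carried by luminal progenitor cells (0.94), and Morrbid (0.93). Krt8 was most like Mal2 (0.91) and the luminal surface marker Cd24a (0.90), Krt18 like the tight junction gene Cldn4 (0.94) and Tnfrsf12a (0.88), and Krt19 like Commd6 (0.94) and Cnksr1 (0.86).

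Other markers of the 2 cell layers showed few calls beside the keratins. Of 12 tested luminal genes, 1 was called higher in null glands at 8 h, Cd24a (1.82-fold), and 1 lower, Spdef, a transcription factor of secretory epithelia (2.06-fold), with a list median of -0.02. Of all tested probe sets 1.54% were called higher and 1.54% lower there. At 24 h none was called, and the median was -0.37. Kit (1.80-fold) and the aldehyde dehydrogenase gene Aldh1a3 (1.49-fold) were called lower at 24 h than at 8 h in null glands, where 3.59% of all tested were. In wild-type glands Aldh1a3 was also called lower at 24 h (1.45-fold), as were 3.69% of all tested. Foxa1 was called higher there (1.77-fold), as were 1.53% of all tested. Of 15 tested basal and myoepithelial genes, Lgr5, a stem cell receptor, was called higher in null glands at 8 h (2.09-fold, 0 lower), and Trp63 was called lower at 24 h (2.65-fold, adjusted p = 0.033, 0 higher), where 0.873% of all tested were called lower. The basal list medians were 0.13 at 8 h and -0.30 at 24 h. Oxtr, the oxytocin receptor of myoepithelial cells, was called lower at 24 h than at 8 h in null (3.15-fold) and in wild-type glands (2.66-fold), as were 3.59% and 3.69% of all tested.

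General epithelial genes carried more calls than the keratins at 24 h. Of 16 tested, 7 were called lower in null glands at 24 h and 0 higher, where 0.873% of all tested probe sets were called lower, with a median of -0.69 against -0.02 over all of them. The 3 with the largest change were Prom2, a prominin of cell protrusions (3.72-fold lower), Cldn7, a tight junction claudin (2.28-fold), and Esrp1, an epithelial splicing regulator (2.09-fold). At 8 h 2 were called lower (Prom2, 2.19-fold, and Spint1, 1.69-fold) and 1 higher (Cldn4, 1.54-fold), where 1.54% of all tested were called lower and 1.54% higher. Cldn4 was the member called for the interaction, with -0.89 (adjusted p = 0.047), where 0.143% of all tested were called.

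The proteins that keratin filaments attach to are the plakins and plaque proteins of desmosomes and hemidesmosomes. Of 16 tested genes of this kind, 1 was called lower in null glands at 24 h, the plakin Eppk1 (1.92-fold, adjusted p = 0.0038), and 0 higher, with a median of -0.50, where 0.873% of all tested were called lower. At 8 h 1 was called higher, the desmosomal plaque gene Pkp2 (1.83-fold), and 0 lower, with a median of 0.10, where 1.54% of all tested were called higher. Plec, the cross-linker of filaments to hemidesmosomes, was called lower at 24 h than at 8 h in null glands (1.26-fold), and Evpl, a plakin of desmosomes, higher in wild-type glands (1.61-fold), where 3.59% and 1.53% of all tested were called in these directions. Of 6 tested other intermediate filament genes none was called in any of the 5 comparisons, with medians between -0.19 and 0.02.

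The skin and hair follicle list moved with the basal keratins across arrays. Of its 16 genes 15 were annotated and 6 tested, and none was called in any comparison. Their mean, centred per gene, was -0.57, -1.27 and -1.20 in null pools and 2.57, 0.04 and 0.65 in wild-type pools at 24 h. At 8 h it was 0.15, 0.75 and -0.99 in null pools, against -0.30, -1.22 and 1.39 in wild-type pools. Over the 12 arrays this mean correlated with Krt5 at 0.89, Krt15 at 0.87, Krt14 at 0.81 and Krt17 at 0.61, and with Krt7, Krt18, Krt19 and Krt8 at 0.45, 0.31, 0.19 and 0.01. Over the 10 arrays without the 2 highest it correlated with Krt5 at 0.78, Krt15 at 0.93, Krt14 at 0.86 and Krt17 at 0.91. Krtdap and Calml3, which are keratinocyte genes, were also high on wild-type pool 3 at 24 h (9.21 and 8.20) and null pool 2 at 8 h (8.98 and 8.09), which were the highest arrays for Krt17. With both of the arrays highest in skin markers left out, the 24 h differences were -0.92 for Krt5, -1.63 for Krt14, -1.40 for Krt15 and -2.18 for Krt17, and 0 of the 11 probe sets were called. That fit kept wild-type pool 2 at 24 h and wild-type pool 1 at 8 h, which were high in the hair keratins Krt31 and Krt35. The part of skin in the basal differences was not tested beyond this.

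Markers of other tissues also differed, some between groups and some between single arrays. Of 9 brown adipocyte genes 3 were called higher in null glands at 8 h (Fabp3, Ucp1 and Cidea, 5.04-, 3.91- and 3.16-fold), where 1.54% of all tested were. The mean of the skeletal muscle list ran from -3.45 on null pool 2 at 8 h to 2.41 on wild-type pool 1 at 24 h. Its genotype ranges overlapped at both times, and none of its 15 tested genes was called in any of the 5 comparisons. Of 11 tested lymphocyte and plasma cell genes, 2 were called higher in null glands at 8 h and 0 lower, with a median of -0.05. These were Igha and Jchain, genes of plasma cells (7.49- and 7.12-fold), where 1.54% of all tested were called higher. At 24 h Igha was called higher (4.10-fold) and 0 were called lower, with a median of 0.14. Of all 23709 tested probe sets 55 were called higher there. The brown adipocyte mean was highest on null pool 1 at 24 h (0.84) and null pool 1 at 8 h (0.79) and correlated with Krt8 at 0.60 over the 12 arrays and at -0.22 once group means were removed. No member of the white adipocyte list (11 tested) was called. The part of these tissues in the keratin differences was not tested.

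The other 40 keratin genes on the arrays had 48 probe sets, of which 23, for 21 genes, were tested. None was called in any of the 5 comparisons. The genotype difference was negative for 20 of the 21 at 24 h and for 15 at 8 h, against 54.4% and 54.1% of all tested probe sets. The nearest to a call, named after its values were seen, was Krt6a, a keratin of hair follicles and wounds, which was 9.12-fold lower in null glands at 24 h (adjusted p = 0.065). It read 4.78, 5.18 and 4.66 in null pools, against 9.46, 6.71 and 8.02 in wild-type pools. The hair keratin Krt25, also named after its values were seen, ran over 5.80 log2 units between arrays, with 7.55 and 6.77 on wild-type pools 1 and 2 at 24 h, 8.85 and 9.39 on wild-type pools 1 and 3 at 8 h, and 3.59 to 4.06 on the other 8 arrays, the 6 null ones included.

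**Figure D4:**
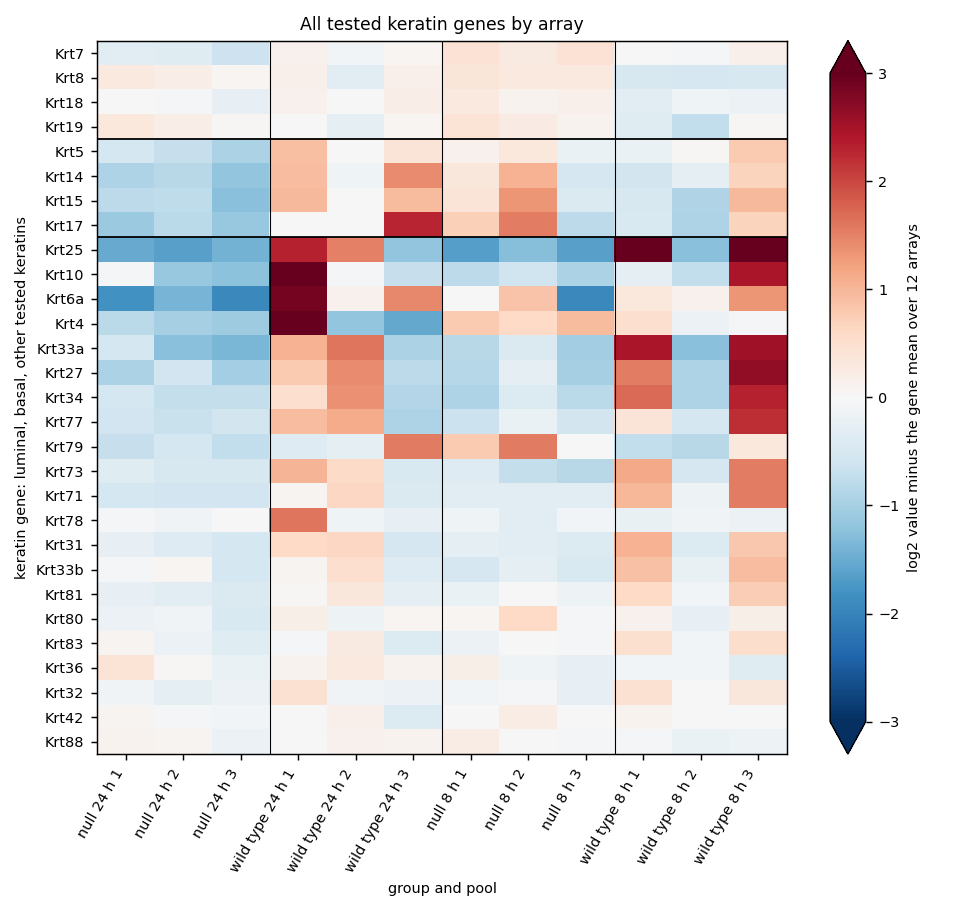
Deposited log2 value minus the gene's mean over the 12 arrays (colour scale, log2, ending at 3 in each direction) for the 8 luminal and basal keratins and the 21 other tested keratin genes (down the page), on each array (across, by group and pool). The luminal keratins are pale throughout, the 4 basal keratins are below their means on all 3 null arrays at 24 h, and the strongest colours lie among the other keratins on wild-type arrays.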

How the data were processed

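Mammary gland RNA was measured on 12 Affymetrix arrays. The authors deposited 1 table of log2 values for 45101 probe sets, a scale judged from the values (2.22 to 14.7), and the array medians nearly coincide. MAS5 appears in the submitters' processing notes without its role or version. How the values were summarized and normalized is not stated there or in the labels, and scanner files were not used here. Precision is limited by the number of arrays. Symbols came from the platform annotation, of 45037 probe sets that are not controls 34945 with 1 symbol, 932 with several and 9160 with none, and were checked against RefSeq (0 changed).

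Groups came from the labels. Differences were tested with limma 3.58.1 under R 4.3.3, using lmFit and a trended eBayes prior. The 4 group means were fitted over 12 arrays with 8 residual degrees of freedom. Probe sets above the array median on at least 3 arrays were tested (23709), with Benjamini-Hochberg adjustment over all of them and a call below 0.05. The code was tested on simulated data. Figures were drawn with matplotlib 3.10.9. Of several probe sets of a gene, the one highest on average represents it. The keratins and gene lists were chosen with earlier results of these data known, and lists leave out the 8 keratins. Text names the keratins, Pgr, other keratins if called, up to 3 called genes per list and comparison, and the 2 genes most like each keratin, with exceptions marked. Not all lists are described: 1 or more endothelial, fibroblast and milk genes were called in some comparisons and are not detailed. Alternatives covered the filter, variance prior, a floor, normalization, array weights, fitting only the groups compared, blocking on replicate number, testing 1 probe set per gene and leaving out each array. Same-numbered null pools at 24 h and 8 h deviated together (r of 0.52, 0.26 and 0.38), and no other pair of groups met this in all 3 pools. The main fit leaves such a pairing out. A block on replicate number in the null arrays was run as an alternative, and there the Krt7 genotype call at 24 h was lost (adjusted p = 0.061 in limma's fit).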

Additional observations from a re-analysis of the deposited data

Results flagged for a closer look

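Krt7 was the keratin whose genotype groups did not overlap at either time and lay in opposite order. The null minus wild type difference was -0.46 on the log2 scale at 24 h, with all 3 null pools below all 3 wild-type pools, and 0.35 at 8 h, with all 3 above. The test of the difference itself, the interaction, gave -0.81 with an adjusted p of 0.053, which does not pass the threshold. Over the 12 fits without 1 array that p ran from 0.0498 to 0.19, and it passed in the fit without wild-type pool 2 at 24 h.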

How the results depend on the processing

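Each count of called keratin probe sets was recomputed under every alternative, and no difference of a called probe set changed sign. For the genotype difference at 24 h (1 called), the count was 0 with no filter, with no trend in the prior, with quantile normalization, with the 2 groups fitted alone, with the block in null arrays and without the 2 arrays highest in skin markers (the last 2 chosen after seeing the data), and 2 with array weights. For time in wild-type glands (1 called), it was 0 with no filter, with the groups fitted alone and without the skin-marker arrays, 2 with quantile normalization, 3 with the replicate block over all groups and 4 with array weights. For time in null glands (1 called), it was 4 with array weights and 2 without the skin-marker arrays, and the replicate block changed no keratin call there. For the interaction (0 called), it was 1 with a robust prior, 1 with median-centred arrays and 2 with array weights. At 8 h (4 called), it was 2 with 1 probe set per gene, where Krt8 counts once, 3 with no filter, no trend, quantile normalization or the groups fitted alone, each losing Krt18, and 6 with array weights, which added Krt7 and Krt19 (adjusted p = 0.0074 and 0.0063). Without the skin-marker arrays it was 4, with Krt19 in place of Krt18. Leaving out each array gave 3 to 4 calls at 8 h, 0 to 3 at 24 h, 0 to 2 for the interaction, 1 to 1 for time in null and 0 to 3 for time in wild-type glands. The luminal minus basal difference then ran from 1.25 to 1.75 at 24 h, from -0.22 to 0.55 at 8 h, from 0.96 to 1.73 for the interaction, from 0.52 to 1.29 in null and from -0.78 to -0.18 in wild-type glands. The causes were not tested.

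The precision is limited by 3 pools a group and, for Krt15 and Krt17, by signals near or below the array median. Calls close to the threshold (Krt7 and Krt18 between genotypes, Krt8 over time in wild-type glands) depended on single arrays or on the processing. Those of Krt8 at 8 h and of Krt7 over time in null glands were kept in every alternative run. Mixed tissue and uneven skin markers limit what the basal keratins show.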
